A study of Mus musculus with 6 samples.

Results

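New gene models are transcribed regions that the authors' gene table lists under an identifier of their own, without an Ensembl gene ID. Models were taken from that table where the identifier carries the word newGene and the 6 raw read counts add up to at least 20. The models were thus chosen by their read total alone. This gave 2165 of the 2802 new models, out of 46141 rows in the table. The total does not use the group labels, but detection and level depend on it and are given as description only. The nearest models outside the limit were 17 with 19 reads in all, with mean levels of 0.0210 to 0.143 FPKM (fragments per kilobase of transcript, scaled to the library's size). Just inside it were 21 models with 20 reads, with 0.0323 to 0.193 FPKM.

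The libraries were made from adherent peritoneal macrophages of male Balb/c mice, 6 to 8 weeks old per the design text. Every mouse, controls included, had received 2 mL of 3% thioglycollate broth 3 days earlier, which draws cells into the peritoneal cavity. The control group then received 0.2 mL of phosphate-buffered saline (PBS) into the peritoneum, and the treated group 0.2 mL of the agent labelled BSN-37 at 48 µg/mL. Cells were washed out 12 h later and allowed to adhere for 4 h, and RNA of 6 mice was pooled per library, so that 18 mice gave 3 pools in each group.

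A transcript assembler reports a new gene model wherever reads pile up outside the known annotation. Such models include unannotated long non-coding RNAs, run-on transcripts and extra exons of neighbouring genes, pseudogenes, and transposable elements that still carry promoters. Mammalian genomes hold many copies of LINE-1 elements, which encode an RNA-binding protein (ORF1) and an endonuclease with reverse transcriptase (ORF2). They also hold endogenous retroviruses with gag, pol and env genes. KRAB zinc finger proteins, a fast-growing family in rodents, bind many of these elements and silence them. The models have no deposited position in the gene table and no deposited sequence, so names below are database matches that the authors give for the predicted product.

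The total of reads over the table lay between 55882693 and 65456020 per library. In the first principal component of the annotated genes PBS library 1 stood apart from the other libraries, at 83.2. The other PBS libraries were at 0.401 and -9.89 and the BSN-37 libraries at -24.1, -18.5 and -31.1. Of 10 listed macrophage markers 9 were in the table and Adgre1 was not. Their summed level was 15262 to 17742 FPKM in the PBS libraries and 15463 to 18048 in the BSN-37 libraries. Most of this sum was Lyz2, at 13303 to 15603 FPKM in PBS and 13215 to 15802 in BSN-37, so it says little about the other markers. The summed level of 6 monocyte markers was 76.7 to 134 FPKM in PBS and 159 to 260 in BSN-37. The sum of 8 B cell markers was 31.3 to 50.6 and 47.7 to 108 FPKM. All 6 and all 8 were higher after BSN-37, and none was called by the test. The sum of 7 neutrophil markers was 79.0 to 127 and 120 to 231 FPKM, with 4 of the 7 higher, and that of 5 mast cell markers 0.110 to 0.198 and 0.561 to 0.788 FPKM. Of the T and NK cell markers Ncr1 and Gzma were at 0, as was Prg2 of the eosinophil list. The sum of 5 erythroid markers was 0.395 to 20.1 FPKM in PBS and 0.165 to 33.9 in BSN-37. It was highest in PBS library 2 and BSN-37 library 3. The part of these cells in the values below was not tested. In pooled bulk RNA, more cells of a type and more RNA per cell cannot be told apart.

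Most new models were read in every library, at a low level. Of the 2165 models 1636 (75.6%) had reads in all 6 libraries, 297 in 5, 135 in 4, 81 in 3, 12 in 2 and 4 in 1. The median of the mean level was 0.277 FPKM, with 0.108 at the 10th and 1.07 at the 90th percentile. There were 238 models (10.99%) at 1 FPKM or more and 19 at 5 FPKM or more. Annotated genes with at least 20 reads had a median of 3.02 FPKM, and 64.7% of them reached 1 FPKM. In reads, 794 models had 20 to 99 over the 6 libraries, 964 had 100 or more but under 1000, and 407 had 1000 or more. The median was 172 reads, against 2702 for the annotated genes.

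Reads and FPKM together give the length the authors' counting assumed for each model. For 1574 annotated genes with a single transcript this implied length lay between 0.916 and 1.03 times the annotated length in 90% of cases. The new models had a median implied length of 1411 bases, with 529 and 5750 bases at the 10th and 90th percentiles, and annotated genes a median of 2362. The shortest model was 214 bases and 69 models were longer than 10 kb. The FPKM given per read can differ between libraries for 1 model. Between the highest and lowest library it differed by over 1.5-fold in 59 of 877 models with at least 20 reads in every library, and in 335 of 12897 annotated genes, so differences fitted to reads and ratios of FPKM need not match. The longest model was newGene_12539, with an implied length of 33712 bases and a match to LINE-1 ORF2. The next long LINE-1 model, newGene_2955, had 32674 bases.

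Together the new models took 0.546, 0.640 and 1.10% of all reads in PBS libraries 1, 2 and 3 and 0.634, 0.480 and 0.703% in BSN-37 libraries 1, 2 and 3. PBS library 3 was the highest of the 6, and the groups overlapped. One model, newGene_8051, held a large part of these reads. It has no database match and an implied length of 468 bases. Its reads were 23375, 12737 and 357905 in PBS and 39131, 8201 and 48858 in BSN-37, which is 700, 361 and 11346 FPKM against 1256, 248 and 1329 FPKM. In PBS library 3 it held 49.7% of all reads in new models. Without it the shares were 0.508, 0.619 and 0.556% in PBS and 0.564, 0.466 and 0.628% in BSN-37. The fitted difference of newGene_8051 was -1.97 on the log2 scale (SE 1.15, edgeR adjusted p = 0.779), and it was 0.80 without PBS library 3. Mitochondrial ribosomal RNA also varied between libraries. mt-Rnr1 was 1.43, 2.16 and 28.3 FPKM in PBS and 16.5, 6.36 and 6.53 in BSN-37, with its highest value in PBS library 3. mt-Rnr2 was 22.5, 81.9 and 306 FPKM in PBS and 220, 215 and 137 in BSN-37, also highest there. In BSN-37 library 2, where newGene_8051 was lowest, mt-Rnr2 was at 215 FPKM. The part of either RNA in the newGene_8051 values was not tested.

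**Figure D1:**
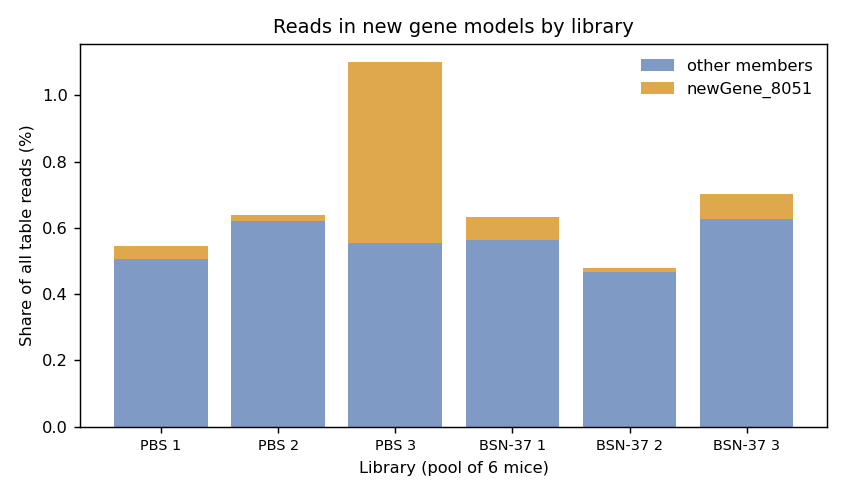
Share of all table reads (percent, bars from 0) that fell in new gene models, by library, split into newGene_8051 and the other models. The bar of PBS library 3 reaches 1.10%, and without newGene_8051 all 6 libraries lie between 0.466 and 0.628%.

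None of the other models of high level passed the test either. The second highest, newGene_18088, has an implied length of 5551 bases and no match. Its levels were 30.1, 51.2 and 31.2 FPKM in PBS and 56.2, 40.5 and 37.9 in BSN-37. newGene_5997, of 5164 bases, had 14.8, 26.1 and 18.6 FPKM in PBS and 22.9, 20.3 and 15.3 in BSN-37. For both models the groups overlapped. newGene_8640 had 28.4, 18.3 and 10.5 FPKM in PBS and 16.9, 10.2 and 17.7 in BSN-37, with PBS library 1 the highest. newGene_9225 matches the tlm protein of the mouse, and it had 8.91, 17.3 and 2.52 FPKM in PBS and 19.6, 13.4 and 20.7 in BSN-37. It was lowest in PBS library 3, the library in which newGene_8051 was highest. newGene_1576, newGene_11289, newGene_3637 and newGene_1603 had group means of 5.89, 5.93, 6.54 and 6.59 FPKM in PBS and 7.54, 7.43, 7.49 and 6.76 in BSN-37, with overlap in each. newGene_6216 was the 1 model among the 12 of highest level whose groups did not overlap, with 12.0, 15.5 and 9.31 FPKM in PBS and 16.9, 16.8 and 16.2 in BSN-37 (log2 difference 0.40, SE 0.19, edgeR adjusted p = 0.733).

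No new model passed the test of BSN-37 against PBS. With edgeR and Benjamini-Hochberg adjustment over all 19690 rows with at least 20 reads, 0 of 2165 models had an adjusted p under 0.05, and over all rows the share called was 0%. At an unadjusted p under 0.05 there were 123 models (5.68%), beside 6.94% of all rows. Of them 45 were higher and 78 lower after BSN-37, where all rows gave 3.5% higher and 3.43% lower. The design text gives a threshold of an unadjusted p under 0.05 together with group means more than 2-fold apart. It took 74 models (3.42%), beside 2.19% of all rows, with 32 higher and 42 lower. All rows gave 1.39% higher and 0.797% lower. The levels of the groups did not overlap in 205 models (9.47%), against 12.7% of all rows. There were 93 models with every BSN-37 library above every PBS library, beside 7.21% of all rows, and 112 the other way, beside 5.5%. The median log2 difference of the models was -0.03, beside -0.0049 over all rows tested, with 1039 models higher. The sign of the median changed with the library left out (-0.14 to 0.06) and with limma (0.0020 on log2(FPKM + 0.1)).

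DESeq2, run on the same counts, called 9 models at an adjusted p under 0.05, 2 higher and 7 lower, of the 875 models it gave an adjusted p. Over all rows it called 0.921%. Without its filter on mean counts it called 9 of 2157 models, 3 higher and 6 lower, beside 0.6% of all rows. The authors' deposited table has a p-value for 760 of the models and calls 4 of them up and 7 down. Per the column header these calls use a p-value of 0.05, not adjusted, and a 1.5-fold change. They are thus not at the thresholds used above. Of 12983 rows with a p-value, the authors' deposited table calls 149, or 1.15%.

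**Figure D2:**
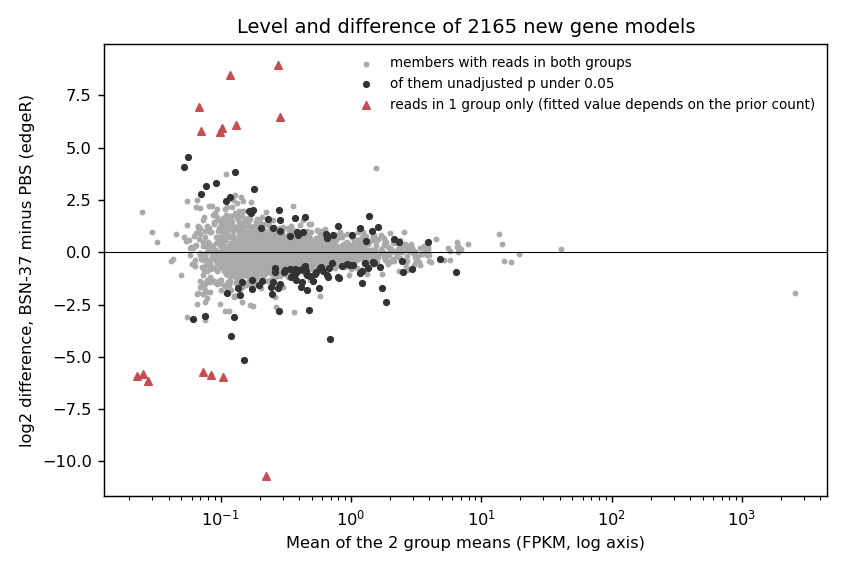
Fitted log2 difference of BSN-37 minus PBS (edgeR) against the mean of both group means (FPKM, log axis) for 2165 new gene models, with darker points at an unadjusted p under 0.05 and triangles for models read in 1 group only. The spread of differences is widest at low level, and the point far to the right at -1.97 is newGene_8051.

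Among models higher after BSN-37, newGene_6740 had the lowest p. It has no match and an implied length of 1583 bases. It had 0, 0 and 0 reads in PBS and 54, 44 and 91 in BSN-37, or 0.509, 0.391 and 0.749 FPKM. With a floor of 3 reads over the PBS group the level was at least 65.3-fold higher after BSN-37. The edgeR adjusted p was 0.224 (unadjusted 3.41e-05), and it lay between 0.0776 and 0.449 with a library left out. DESeq2 gave it no adjusted p with its filter and an adjusted p of 9.29e-07 without it. The bound holds only where a count of 0 reflects counting error, and some models with many reads had none in a single library, as described below. newGene_6740 also entered the set through its BSN-37 reads alone, so its fold is a description and no support for an effect.

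Another 4 models had 0 reads in every PBS library and reads in every BSN-37 library. newGene_5705 had 12, 9 and 11 reads in the BSN-37 libraries and newGene_9980 had 8, 8 and 9. newGene_447 had 4, 10 and 6 reads and newGene_17083 had 6, 10 and 4. None of the 4 has a match. The reverse pattern was seen in newGene_6344, with 4, 4 and 14 reads in PBS and 0 in every BSN-37 library. A model read in 1 group only enters the set through that group, so the minimum of 20 reads sets how small a fold it can show, and no fold is given for these 5 models. Models with 0 reads in PBS and reads in all BSN-37 libraries, newGene_6740 included, were 0.231% of the new models, beside 0.0711% of all rows. The reverse was 0.0462%, beside 0.066% of all rows. In all, 8 models (0.370%) had reads in BSN-37 libraries only, beside 0.264% of all rows, and 7 (0.323%) in PBS libraries only, beside 0.254%. These differences in share were not tested.

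Of the one-group models with gaps in the other libraries, 2 had over 100 reads, and they were chosen here after their values were seen. newGene_10131 had 519, 64 and 0 reads in PBS and none in BSN-37. All 145 reads of newGene_583 lay in BSN-37 library 3. In both models pools of the same group differed as well.

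With reads in both groups, newGene_7831 had the lowest p of the higher models. Its levels were 0.209, 0.158 and 0.182 FPKM in PBS and 0.639, 0.581 and 0.468 in BSN-37, from 41, 45 and 49 reads against 142, 128 and 136. The lowest BSN-37 library was above the highest PBS library (log2 difference 1.62, SE 0.27, edgeR adjusted p = 0.492, DESeq2 adjusted p = 0.00073). It has an implied length of 3361 bases and no match. newGene_1625 had 0.102, 0.295 and 0.193 FPKM in PBS and 0.929, 0.628 and 0.50 in BSN-37 (log2 difference 1.71, edgeR adjusted p = 0.642). newGene_10668, newGene_8488 and newGene_16840 were lower still in level, at a mean of 0.295, 0.347 and 0.103 FPKM in BSN-37 against 0.0618, 0.112 and 0.0016 in PBS. newGene_16840 rests on 1 read in PBS and 22 in BSN-37.

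Among models lower after BSN-37, newGene_4400 had the lowest p and one of the longest implied lengths, 15183 bases. Its levels were 1.38, 1.78 and 1.50 FPKM in PBS and 0.898, 0.778 and 1.00 in BSN-37, from 1480, 2037 and 1847 reads against 726, 961 and 1203. Every BSN-37 library was below every PBS library (log2 difference -0.88, SE 0.16, edgeR adjusted p = 0.492, DESeq2 adjusted p = 0.0011). newGene_13787 had 0.485, 0.958 and 0.685 FPKM in PBS and 0.344, 0.377 and 0.344 in BSN-37 (log2 difference -1.03). DESeq2 called it with its filter (adjusted p = 0.0485) and did not without it (0.065). newGene_724, of 11921 bases, was at 0.907, 0.746 and 0.888 FPKM in PBS and 0.636, 0.465 and 0.463 in BSN-37, a log2 difference of -0.74. newGene_884 was at 2.06, 1.43 and 1.52 against 1.08, 0.989 and 0.989 FPKM, a log2 difference of -0.76. The pools of a group lay close together in both models.

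Other lower models varied more between pools. newGene_13627 had 70, 86 and 100 reads in PBS and 5, 28 and 2 in BSN-37 (log2 difference -2.83, SE 0.77, DESeq2 adjusted p = 0.0329). Without BSN-37 library 2, the highest of its group, the edgeR log2 difference was -4.50. newGene_7025 had 64, 236 and 21 reads in PBS and 13, 19 and 13 in BSN-37, so that PBS library 2 held most of its reads (log2 difference -2.78, SE 0.79, DESeq2 adjusted p = 0.0353). Without that library the edgeR log2 difference was -1.54. newGene_460, newGene_15174, newGene_17417 and newGene_386 had log2 differences of -1.98, -1.18, -1.41 and -1.50, from a mean of 0.398, 1.09, 0.611 and 0.418 FPKM in PBS to 0.10, 0.493, 0.232 and 0.150 in BSN-37. In each of these the edgeR adjusted p was 0.642, and newGene_460 was at -2.59 without BSN-37 library 3. newGene_8089, called by DESeq2 (adjusted p = 0.0162) and listed as down in the authors' deposited table, had overlapping groups, with 215, 77 and 540 reads in PBS and 72, 48 and 33 in BSN-37.

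**Figure D3:**
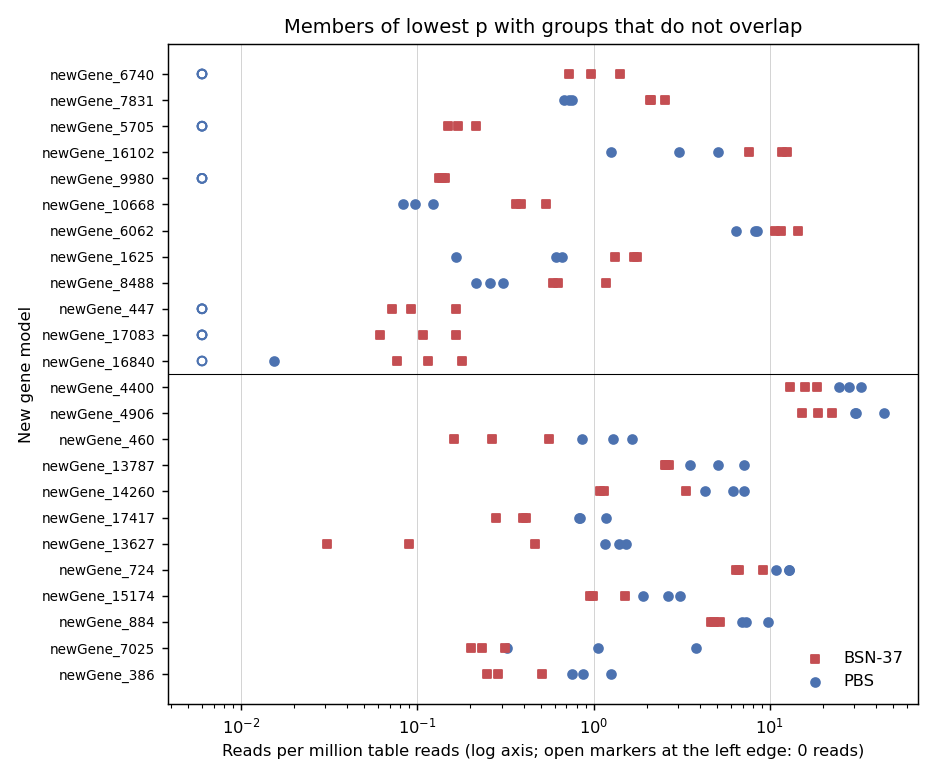
CPM, the read count scaled to the library's table total (log axis), in each library for the 12 models of lowest p per direction whose groups do not overlap, higher after BSN-37 above the line and lower below it. Open circles at the left edge mark 0 reads, as in all 3 PBS libraries for newGene_6740, while the pools of newGene_7025 spread widely within PBS.

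A database match was given for 434 models (20.05%), and 125 of these matched LINE-1 or a retrovirus, which is 28.8% of the models with a match and 5.77% of all. The kinds of match used here were set after the annotations were seen. Of the models with a LINE-1 match in Swiss-Prot, 58 matched ORF2 and 9 ORF1. Copies of these elements are alike, and no source used here says how reads that fit several copies were counted, so the level of a single copy is uncertain. None of the kinds held a model called by edgeR. Counts at an unadjusted p under 0.05 are given below by kind, and all rows gave 3.5% higher and 3.43% lower.

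LINE-1 models numbered 67, with a summed level of 30.0, 34.4 and 30.3 FPKM in PBS and 35.0, 26.3 and 46.3 in BSN-37. The BSN-37 libraries held both the lowest and the highest sum. Of the 67 models 42 were higher and 25 lower (median log2 difference 0.16), and 2 higher and 1 lower model had an unadjusted p under 0.05. Without BSN-37 library 3 the count of higher models was 33 and the median -0.03. The ORF2 model newGene_12539 was at 0.884, 1.39 and 1.18 FPKM in PBS and 1.20, 0.718 and 0.835 in BSN-37, a log2 ratio of the means of -0.33. Its reads were 2130, 3540 and 3150 in PBS and 1889, 1551 and 2214 in BSN-37, from which edgeR gave a log2 difference of -0.61 (adjusted p = 0.642), while limma on log2(FPKM + 0.1) gave -0.31. newGene_4089 was at 0.655, 1.03 and 0.458 FPKM in PBS and 0.802, 1.45 and 1.69 in BSN-37, with overlap (log2 difference 0.84). newGene_1471 was at 0.222, 0.324 and 0.191 FPKM in PBS and 0.447, 0.446 and 0.403 in BSN-37, with groups that did not overlap. newGene_13349, a match to ORF1, the RNA-binding protein of the element, had 2019, 2205 and 1688 reads in PBS and 2460, 376 and 3228 in BSN-37. Its value in BSN-37 library 2 was the lowest of the 6, and that in BSN-37 library 3 the highest. newGene_2955 had 1203, 2861 and 2550 reads in PBS and 2385, 1030 and 3090 in BSN-37, with the same order within BSN-37.

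The authors' table names 19 models after the IgE-binding protein of the Iap locus, a product of intracisternal A-particles, which are retroviral elements without an envelope gene in most copies. Their summed level was 20.6, 26.0 and 23.5 FPKM in PBS and 23.1, 27.8 and 32.5 in BSN-37. Of them 15 were higher and 4 lower, with a median log2 difference of 0.38 and 12 to 15 higher with a library left out. Both models at an unadjusted p under 0.05 were lower. newGene_2794 went from 1.32, 0.713 and 0.606 FPKM in PBS to 0.0828, 0.220 and 0.490 in BSN-37, and newGene_13624 from 0.534, 0.678 and 0.644 to 0.328, 0.466 and 0.105. The majority of the models and those of lowest p thus differed in sign.

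The other retroviral models numbered 39, of which 18 were higher and 21 lower (median log2 difference -0.09, and 0.02 without PBS library 2). Their summed level was 56.5, 53.0 and 49.5 FPKM in PBS and 51.7, 50.2 and 48.0 in BSN-37. At an unadjusted p under 0.05 there were 4 higher and 2 lower models. newGene_4906 matches the Env protein of the Fv-4 locus, a retroviral envelope that in mice blocks entry of ecotropic murine leukaemia viruses. It was at 10.8, 7.10 and 7.25 FPKM in PBS and 4.45, 5.51 and 3.56 in BSN-37, from 2692, 1878 and 2009 reads against 1046, 1362 and 980. Every BSN-37 library was below every PBS library (log2 difference -0.94, SE 0.22, edgeR adjusted p = 0.622, DESeq2 adjusted p = 0.0144). The other abundant envelope model, newGene_8949, matches an Env protein related to murine leukaemia virus. Its levels were 8.52, 6.27 and 5.39 FPKM in PBS and 8.58, 11.1 and 7.73 in BSN-37, overlapping, with a log2 difference of 0.39. The 2 envelope models thus had fitted differences of opposite sign, and this contrast was not tested.

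A group of 12 models shares 1 match, the predicted protein LOC110312285, and each carries the p15 matrix domain of a retroviral Gag protein. The matrix protein lines the inside of the viral membrane. Of them 5 were higher and 7 lower, with log2 differences of -1.69 to 1.74 and mean levels of 0.836 to 2.09 FPKM. newGene_16102 was at 0.617, 1.00 and 0.247 FPKM in PBS and 1.53, 2.58 and 2.31 in BSN-37 (log2 difference 1.74, SE 0.43, edgeR adjusted p = 0.642, DESeq2 adjusted p = 0.0069). newGene_14260 was at 1.88, 2.71 and 3.17 FPKM in PBS and 0.611, 1.47 and 0.498 in BSN-37 (log2 difference -1.69, SE 0.45, edgeR adjusted p = 0.642, DESeq2 adjusted p = 0.0199), and at a log2 difference of -2.41 without BSN-37 library 2. Models with the same match thus held both the largest positive and the largest negative difference of the group, with no overlap between the groups in either. The other 10 had overlapping groups. newGene_6062, whose match is the Pol protein of an endogenous retrovirus of group K, an enzyme that copies the viral RNA, was at 1.65, 1.81 and 2.03 FPKM in PBS and 2.25, 2.18 and 3.01 in BSN-37 (log2 difference 0.64, edgeR adjusted p = 0.642).

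The KRAB zinc finger models numbered 15, and 14 were higher (median log2 difference 0.31). Of the 15, 2 had an unadjusted p under 0.05, both higher. Their summed level was 6.54, 12.1 and 12.1 FPKM in PBS and 10.8, 13.0 and 15.5 in BSN-37. PBS library 1 was the lowest, and without it 10 of 15 were higher. newGene_1792 (match Zfp825) was at 2.21, 3.85 and 4.52 FPKM in PBS and 3.57, 4.02 and 5.21 in BSN-37, with overlap (log2 difference 0.50, SE 0.20, edgeR adjusted p = 0.703). newGene_16907 was at 0.0670, 0.273 and 0.122 FPKM in PBS and 0.304, 0.375 and 0.382 in BSN-37, without overlap. Most of these models match the same mouse zinc finger protein, and members of that family share their finger repeats, so reads could be split between copies.

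Ribosomal protein matches numbered 5, with 2 higher and 3 lower and no p under 0.05. Another 46 models had some other match in Swiss-Prot or Pfam, with 29 higher and a median log2 difference of 0.15. The remaining 243 models with a match had no entry in either database. They are labelled as conceptual protein hits, though matches to named proteins occur among them, as in newGene_9225. These 243 models had a median of 0.01, with 3 higher and 8 lower at an unadjusted p under 0.05. In the 1731 models without a match 793 were higher and 938 lower (median -0.06). Of them 32 higher and 63 lower models had an unadjusted p under 0.05, beside 3.5% and 3.43% of all rows. newGene_11285, whose match is Tnrc18, a chromatin protein with a BAH domain, had the most reads of the models matching an ordinary coding gene among those named here. It was at 4.23, 4.41 and 3.56 FPKM in PBS and 3.25, 4.81 and 3.48 in BSN-37, and the groups overlapped.

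**Figure D4:**
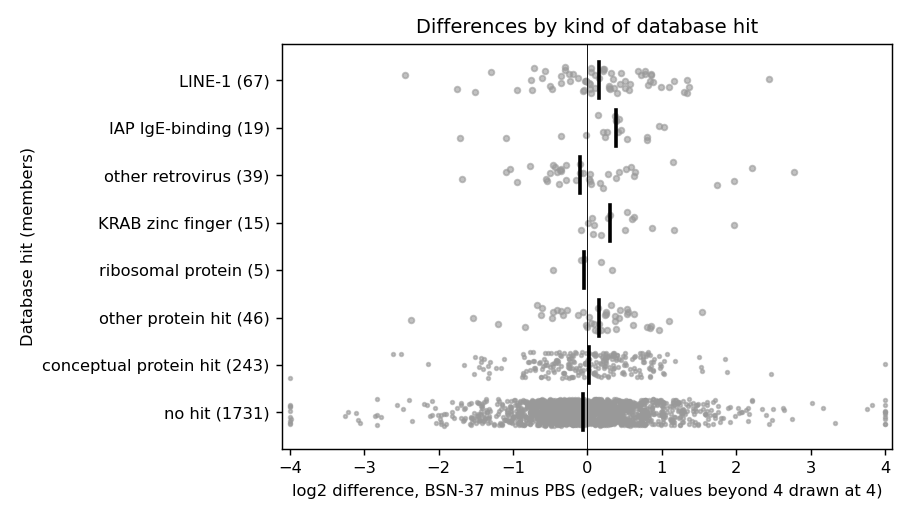
Fitted log2 difference of BSN-37 minus PBS (edgeR) for each new gene model, by kind of database match, with the number of models in brackets and a bar at the median. Medians run from -0.09 in other retroviral models to 0.38 in IAP models, and values beyond 4 in size are drawn at 4.

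New models varied more between pools than annotated genes with like read totals. Among models with at least 1000 but under 3000 reads the median coefficient of variation (SD over mean, between pools of a group) was 30.0%, against 18.9% in annotated genes. In the last bin, which starts at 3000 reads, it was 31.3% against 13.3%, and with 20 to 99 reads 72.4% against 65.5%. The difference between both kinds of row was not tested. Models that were read well in 5 libraries could be missing from the sixth. Of 459 models with at least 100 reads in 5 libraries, 3 had 0 reads in the other one and 5 were at least 10-fold lower there. Among 10977 annotated genes these counts were 4 and 6. newGene_12867 had 684, 661 and 699 reads in PBS and 682, 782 and 0 in BSN-37. newGene_16203 had 287, 0 and 397 in PBS and 298, 425 and 430 in BSN-37, and newGene_5028 had 0, 751 and 407 in PBS and 515, 515 and 545 in BSN-37. Each of the 3 was missing from a different library, and libraries of both groups were affected. newGene_5401 had 3285, 3444 and 2862 reads in PBS and 4058, 108 and 4423 in BSN-37, and newGene_10347, a retroviral match, had 4 reads in BSN-37 library 2 and 103 to 576 in the others.

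**Figure D5:**
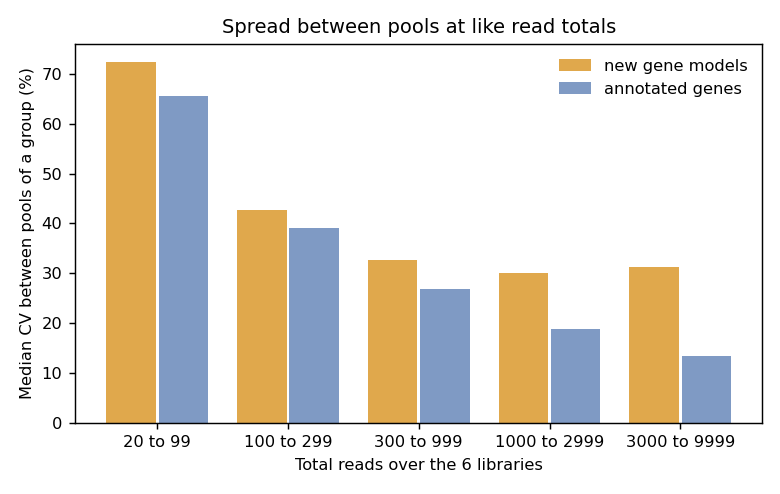
Median coefficient of variation between pools of a group (percent, bars from 0) for new gene models and annotated genes, in bins of total reads over the 6 libraries. New models are higher in each bin, and the gap is widest in the last, at 31.3% against 13.3%.

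Positions are deposited for new models only where they host a circular RNA, a closed loop joined by back-splicing. Of 1273 circular RNA loci 9 were hosted by a new model, and all 9 hosts had at least 20 reads. They held 26 of 22147 junction reads, and each was seen in 1 library. In GRCm38, 4 of the 9 loci overlapped an annotated gene of GENCODE M21, and 6 lay within 10 kb of one, overlaps included. The circle of newGene_15910, at chr9:121316011-121316353, lies in Trak1, a protein-coding gene for a motor adaptor of mitochondria. newGene_15910 was at 5.71, 4.99 and 5.14 FPKM in PBS and 4.15, 4.45 and 4.58 in BSN-37, without overlap (log2 difference -0.31, SE 0.12, edgeR adjusted p = 0.697). The circle of newGene_506, at chr12:34373878-34433231, spans part of Hdac9, the gene of a class II histone deacetylase. The model's own matches are histone deacetylase 5 in Swiss-Prot and histone deacetylase 9 in another database. newGene_506 was at 0.763, 1.02 and 1.72 FPKM in PBS and 1.24, 2.72 and 1.64 in BSN-37, with overlap.

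The circle of newGene_2078, at chr1:4206660-4228619, overlaps Rp1, a gene of photoreceptor axonemes, while the authors match the model to a lipoxygenase homology domain protein. That of newGene_12218, at chr6:117943313-117943614, lies 5.621 kb from Fxyd4. newGene_14644 matches the Pol protein of an endogenous retrovirus of group K, and its circle at chr10:51405364-51418401 lies 37.579 kb from the nearest annotated gene. It was at 2.13, 3.39 and 2.56 FPKM in PBS and 3.53, 2.87 and 1.62 in BSN-37, and the groups overlapped. The 9 circles carried 2 to 4 junction reads each, too few to compare groups. That of newGene_6934 also had 3 and fell outside the limit of 5 named hosts.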

How the data were processed

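Raw read counts and FPKM of 6 rRNA-depleted, directional libraries come from the gene table the authors deposited, which also gives their DESeq2 results and database matches. Its group means, which are estimated counts that need not be whole and mean FPKM by the authors, were not used. From the circular RNA table junction read counts were used as the authors deposited them, while its signal (SRPBM), p-value and log2 fold change columns, made by the authors per the file headers, were not. The submitters' processing notes name GRCm38. No source used here names the assembler, aligner or counter. The design text describes microarrays, but the library protocol and values are those of sequencing.

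All 19690 rows with at least 20 reads over the 6 libraries were fitted with edgeR 4.0.16 (R 4.3.3; TMM, quasi-likelihood F test, two-sided, PBS and BSN-37 without covariates), and p-values adjusted by Benjamini-Hochberg over all of them. DESeq2 1.42.0 and limma 3.58.1 were alternatives. FPKM of a group did not overlap where the lowest of 1 group exceeded the highest of the other. Folds against 0 use a floor of 3 reads over the group. Floors cover counting error only, since reads without molecular identifiers are not independent molecules. The labels do not say that the replicate numbers pair the pools. Libraries of a group all differed by more than counting noise (chi-square over its degrees of freedom, 67.4 to 176). The pools are separate samples per the labels, and p-values measure the spread between them. Positions of circular RNAs were set against GENCODE M21, of the same build.

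Models were named by rule: the 12 of highest mean level, the 12 of lowest p per direction with groups that do not overlap, those with 0 reads in 1 group and reads in all libraries of the other, up to 8 with most reads among those with a Swiss-Prot or Pfam entry, and up to 5 circular RNA hosts by junction reads. Further models were chosen after their values were seen: the LINE-1, IAP and KRAB models at an unadjusted p under 0.05, newGene_8089, newGene_10131, newGene_583, newGene_17710 and those missing from 1 library. The models, kinds of match and lists were chosen with earlier results of these data known.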

Additional observations from a re-analysis of the deposited data

How the results depend on the processing

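The count of models called, 0 with edgeR, was 9 with DESeq2 and 9 with DESeq2 without its filter, and it lay between 0 and 1 with a library left out. The 1 model, called without BSN-37 library 2 (adjusted p = 0.0449), was newGene_17710, with 164, 109 and 225 reads in PBS and 0, 68 and 0 in BSN-37 (adjusted p = 0.721 with all libraries). The 74 models past the design text's threshold became 15 with a minimum of 0.5 FPKM in 3 libraries, which tests only 600 models. They became 114 with limma on log2(FPKM + 0.1) and 66 to 98 with a library left out. The share of all rows past this threshold is given for the main fit only. Changes in the count with the setting, the replicate block below included, are thus no result about the new models. The group difference in the share of reads, -0.157 percentage points, was -0.729 as a share of summed FPKM, -0.0083 without newGene_8051 and -0.264 to 0.0125 with a library left out. No pairing of the pools by replicate number was visible. Same-numbered pools had correlations of deviations of 0.0012 to 0.0089 over all rows and 0.0106 to 0.0800 over the new models, all under 0.1. With 3 pools per group these values cannot tell whether pools were handled in pairs. With a replicate block 0 models were called, 58 were past the design text's threshold and the median was -0.04. For the 25 models named by p or by 0 reads the choice fixes the sign with a library left out, so it is no sign of stability. Of their 335 refits 16 had an adjusted p under 0.05, all of them with DESeq2. Among the 22 other named models 8 changed sign in 19 of 307 refits, and the cause was not tested. newGene_13349 was at -0.34 and -0.13 with limma (pseudocounts 0.1 and 1) and -0.33 with the replicate block, and newGene_2955 at -0.030 with the block. With a library left out, log2 differences ran from -0.33 to 0.55 in newGene_13349, -0.25 to 0.36 in newGene_2955, -0.28 to 0.46 in newGene_1603, -0.29 to 0.11 in newGene_5997, -0.84 to 0.19 in newGene_12867, -0.037 to 0.48 in newGene_18088, -0.14 to 0.37 in newGene_2078 and -2.51 to 0.80 in newGene_8051. Models with 20 to 99 reads limit what could be seen at this depth, but edgeR called 0 of all 19690 rows, whatever their read total. Zfp36l1 is an annotated gene that earlier results of these data name. It was at 3.87, 5.23 and 4.69 FPKM in PBS and 11.7, 15.0 and 12.0 in BSN-37. Its adjusted p was 0.132 with edgeR and 1.29e-13 with DESeq2.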

Other observations

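Libraries differed in how often they held the lowest or highest value of a model. PBS library 1 was the lowest in 555 models and BSN-37 library 2 in 544, against 248 to 301 in the other libraries. Each model was counted for a single library, also where several tied at 0 reads. The same counts over all rows are not given. BSN-37 library 3 was the highest in 471 models and PBS library 2 in 461. The sum of erythroid markers was highest in the same libraries, and its part in these counts was not tested. Models with 0 reads numbered 214, 125 and 126 in PBS and 126, 170 and 117 in BSN-37. The first principal component of the models held 24.2% of their variance, with PBS library 1 and BSN-37 library 2 at one end and BSN-37 library 3 at the other. In the annotated genes PBS library 1 alone stood apart on the first component, which held 28.6%. Along it every BSN-37 library lay further from PBS library 1 than the other PBS libraries did.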
